A study of Mus musculus with 14 samples.

Results

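The injury and fibrosis genes described here are 10 named genes, Havcr1, Spp1, Vcam1, Icam1, Ccl2, Tgfb1, Fn1, Timp1, Cdkn1a and Ccn2, taken by symbol from tables that hold 22263 genes between kidney and liver. All 10 have a row in the kidney table of 20203 genes, and 9 have one in the liver table of 19660 genes. Havcr1 was not analysed here in liver. The RNA came from adult male TG mice, 12 weeks old, of the genotype Hap -6A, in which the transgene is the human angiotensinogen gene. The mice received a Normal Diet or High Salt (HSD in the labels). Kidney had 3 libraries per diet and liver had 4. Every group carried the transgene, so the diet comparison is made within 1 genotype, and the sources used here do not give the strain, the promoter of the transgene, the salt dose or the days on the diet. The labels call the libraries samples and do not say that each is a separate mouse, so p-values measure only the spread between these samples.

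These genes act at successive steps of a shared response. Injured proximal tubule cells put Havcr1 (KIM-1, a receptor for dying cells) on their surface and secrete osteopontin, the product of Spp1. Endothelium and tubules then show the adhesion molecules encoded by Vcam1 and Icam1, and the chemokine of Ccl2 draws monocytes, while the cytokine of Tgfb1 drives Ccn2 (connective tissue growth factor), the matrix protein of Fn1 and the protease inhibitor of Timp1. Cdkn1a encodes p21, which halts the cell cycle, often downstream of p53. In liver, Fn1 is also a major hepatocyte product, since plasma fibronectin is made there, and Spp1 is best known from bile duct cells.

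For the members whose levels stood apart in single libraries or that serve as a contrast to them, the DNA just upstream of the start shows which known motif letters are present. RefSeq (GRCm38.p6) windows of 250 bases before the start were found for 6 members, Havcr1, Spp1, Icam1, Tgfb1, Timp1 and Cdkn1a. Icam1 is shown because 1 liver library held far more of it than any other, Tgfb1 as a member that varied little in kidney, and both Cdkn1a starts because the list of p53 and cell cycle arrest genes below belongs to it. Sequences are 5′ to 3′ on the gene's strand, and the capitals mark, on either strand, GGAANTTCC (an NF-kB type letter pattern), a pair of CATG cores with 6 bases between them (the core spacing of a p53 element) and GGGCGG (a GC box).
Icam1, chr9:21015690-21015939, plus strand: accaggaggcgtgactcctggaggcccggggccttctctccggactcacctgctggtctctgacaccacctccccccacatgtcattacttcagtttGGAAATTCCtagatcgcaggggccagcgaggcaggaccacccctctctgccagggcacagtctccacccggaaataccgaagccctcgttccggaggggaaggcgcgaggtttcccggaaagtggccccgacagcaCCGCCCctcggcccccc
Tgfb1, chr7:25686752-25687001, plus strand: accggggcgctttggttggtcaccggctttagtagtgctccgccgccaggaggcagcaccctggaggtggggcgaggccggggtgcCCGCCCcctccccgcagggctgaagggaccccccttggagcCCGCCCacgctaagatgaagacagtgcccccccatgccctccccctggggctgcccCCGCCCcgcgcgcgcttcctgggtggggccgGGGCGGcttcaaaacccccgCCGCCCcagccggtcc
Cdkn1a upstream start, chr17:29090729-29090978, plus strand: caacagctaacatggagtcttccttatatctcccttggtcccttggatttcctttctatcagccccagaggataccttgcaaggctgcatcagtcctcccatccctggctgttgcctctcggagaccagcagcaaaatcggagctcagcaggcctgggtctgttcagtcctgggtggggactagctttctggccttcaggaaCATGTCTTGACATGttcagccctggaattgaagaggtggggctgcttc
Cdkn1a downstream start, chr17:29093519-29093768, plus strand: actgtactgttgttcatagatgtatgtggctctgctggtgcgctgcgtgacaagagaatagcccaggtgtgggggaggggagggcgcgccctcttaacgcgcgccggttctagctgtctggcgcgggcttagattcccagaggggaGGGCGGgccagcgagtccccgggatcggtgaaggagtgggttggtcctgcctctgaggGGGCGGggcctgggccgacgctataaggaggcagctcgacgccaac
The Icam1 window holds GGAANTTCC from base 153 before the start and a GC box from base 17. Of 32851 windows of this length, 0.813% hold GGAANTTCC. The upstream Cdkn1a window holds the CATG pair from base 48 before the start, a pattern present in 0.490% of the windows. Tgfb1 holds 5 GC boxes and the downstream Cdkn1a window 2, against 32.7% of all windows with at least 1. A looser NF-kB pattern, GGG and CC with 5 bases between them, was searched too, but 45.8% of windows hold it, so it is not marked. TGANTCA (AP-1, in 6.75% of windows) and TATAAA (12.4%) were also searched, and neither is in the 4 windows shown. GGAANTTCC and the CATG pair overlap no other marked match here and were added after these sequences had been read. A match is a description of letters and not a site of binding.

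Kidney libraries held 16046094 to 22004927 counts and liver libraries 37267778 to 51487382. The tissue labels fit their markers: the proximal tubule list summed to 23306 to 57663 CPM (counts scaled to the library's size) in kidney and 0.476 to 45.5 in liver, and the hepatocyte list to 49169 to 105744 in liver and 825 to 1625 in kidney. Several libraries stood apart. Kidney normal diet library 1 was the highest of 6 for 29.1% of the genes tested and the lowest for 29.9%. Liver normal diet libraries 1 and 2 held 2.30% and 2.06% mitochondrial transcripts, against 11.3 to 29.6% in the other liver libraries, and liver normal diet library 4 held the genes of inflammation described below. High salt liver libraries are called HS5 to HS8 after their columns, since these numbers match no title. The proximal tubule list summed to 45.5 CPM in HS7 and 14.4 CPM in HS8, against 0.476 to 5.66 CPM in the other liver libraries. HS5 and HS6 differed by a chi-square of 1.58 per gene, against 10.2 to 61.1 for the other liver pairs of a diet, and were kept as separate samples. The labels do not say whether they come from separate mice, and with both summed to 1 library edgeR again called 0 members in liver.

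In kidney, no injury or fibrosis gene passed the test between the diets. Of the 9 that passed the filter on low counts, 0 were past an adjusted p of 0.05 in edgeR's quasi-likelihood test, where the background was 0% of 15847 genes. At an unadjusted p of 0.05 the count was also 0 of 9, against 2.01% of all genes, and by DESeq2, limma and voom it was 0 as well at the adjusted threshold. In none of the 9 did the diets fail to overlap, against 6.92% of all genes. The members' median log2 fold change was 0.00, beside -0.02 over all genes. In whole tissue, fewer cells of a type and less RNA per cell cannot be told apart.

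Havcr1 (chr11:46735080-46779578, GRCm38), the receptor that marks injured proximal tubule, had the largest spread of log2 CPM within the diets among the tested members. It stood at 1.65, 21.0 and 33.3 CPM in normal diet libraries 1, 2 and 3 and at 6.88, 3.34 and 16.8 CPM in high salt libraries 1, 2 and 3. Library 1 of the normal diet was the lowest of all 6 and libraries 2 and 3 of the same diet were the highest, so the diets overlap throughout. The normal diet libraries alone spanned a 20.2-fold range, and the spread ranked Havcr1 56 of 15847 genes. Ccl2, with few counts, had a wider range from lowest to highest library. The log2 fold change was -1.04 (SE 0.90, 95% interval -3.12 to 1.04), with an adjusted p of 0.9996 by edgeR. Leaving out normal diet library 3 gave -0.32, and leaving out high salt library 3 gave -1.85. With normal diet library 1 left out it was -1.58 (unadjusted p 0.0109, adjusted p 0.244 by edgeR). The authors' normalized values, which in kidney come from another quantification, gave the same order, with 33.5, 418 and 666 on the normal diet and 134, 69.9 and 344 on high salt, and a log2 fold change of -0.52 by limma with a pseudocount of 1.

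Spp1 (chr5:104435118-104441050), the gene of osteopontin, was the most abundant member in kidney and the one with the smallest spread of log2 CPM within the diets among the tested members. Its level was 391, 374 and 368 CPM on the normal diet and 363, 285 and 487 CPM on high salt. The high salt libraries lay on both sides of the normal diet libraries, which spanned only a 1.06-fold range. The log2 fold change was 0.00 (SE 0.24, 95% interval -0.56 to 0.56, adjusted p 0.9996 by edgeR), an interval that leaves room for a change of that size in either direction.

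The adhesion and chemokine genes gave the same picture as Havcr1, with normal diet library 1 at the bottom. Vcam1 (chr3:116109949-116129688), which encodes a ligand for monocyte and lymphocyte integrins, stood at 5.40, 15.2 and 15.7 CPM on the normal diet and 12.1, 11.3 and 14.8 CPM on high salt. Icam1 (chr9:21015985-21028817), the ligand of leukocyte beta2 integrins, stood at 9.04, 11.8 and 15.5 CPM on the normal diet and 10.9, 9.39 and 12.4 CPM on high salt. Ccl2 (chr11:82035571-82037453), the monocyte chemokine MCP-1, was near the limit of counting, with 1, 22 and 16 counts on the normal diet and 9, 20 and 20 counts on high salt. For each of these 3 genes the lowest library was normal diet library 1, and the highest was also on the normal diet. The log2 fold changes were 0.08 for Vcam1 (SE 0.38), -0.15 for Icam1 (SE 0.25) and 0.28 for Ccl2 (SE 0.84), each with an adjusted p of 0.9996 by edgeR. Without normal diet library 1 the values of Vcam1 and Ccl2 turned to -0.27 and -0.28. The spread of Ccl2 within the diets ranked 188 of 15847 genes.

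Among the tested profibrotic genes, Ccn2 had a larger spread within the diets than Fn1 and Tgfb1. Tgfb1 (chr7:25687002-25705077) stood at 4.85, 3.28 and 3.97 CPM on the normal diet and 5.09, 3.72 and 6.09 CPM on high salt, a log2 fold change of 0.30 (SE 0.28, 95% interval -0.33 to 0.94). Ccn2 (chr10:24595442-24598683), a matricellular protein and a target of TGF-beta and of YAP, stood at 58.3, 178 and 219 CPM on the normal diet and 94.6, 128 and 87 CPM on high salt. Its high salt libraries all lay between the lowest normal diet library and the other 2, and the log2 fold change was -0.56 (SE 0.44, 95% interval -1.57 to 0.46). Without normal diet library 1 it was -0.94 (unadjusted p 0.00185, adjusted p 0.20 by edgeR), and without normal diet library 3 it was -0.20. Fn1 (chr1:71585520-71653200), the fibronectin of the matrix, stood at 18.9, 15.1 and 18.3 CPM on the normal diet and 23.4, 12.5 and 18.6 CPM on high salt, so both extremes were on high salt. The log2 fold change of Fn1 was 0.06 (SE 0.25, 95% interval -0.52 to 0.65). For Tgfb1, Ccn2 and Fn1 the adjusted p was 0.9996 by edgeR.

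Timp1 (chrX:20870166-20874735), an inhibitor of matrix metalloproteinases, was counted too thinly in kidney to pass the filter. It had 2, 8 and 17 counts on the normal diet and 1, 1 and 23 counts on high salt, so 1 library of each diet held most of the counts. Cdkn1a (chr17:29090976-29100727), the p21 gene, stood at 2.70, 1.29 and 1.45 CPM on the normal diet and 1.65, 0.756 and 2.09 CPM on high salt. It was highest in normal diet library 1, the library with the lowest Havcr1, Vcam1, Icam1, Ccl2 and Ccn2. The log2 fold change of Cdkn1a was -0.26 (SE 0.47, adjusted p 0.9996 by edgeR), and without that library it was 0.15.

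**Figure D1:**
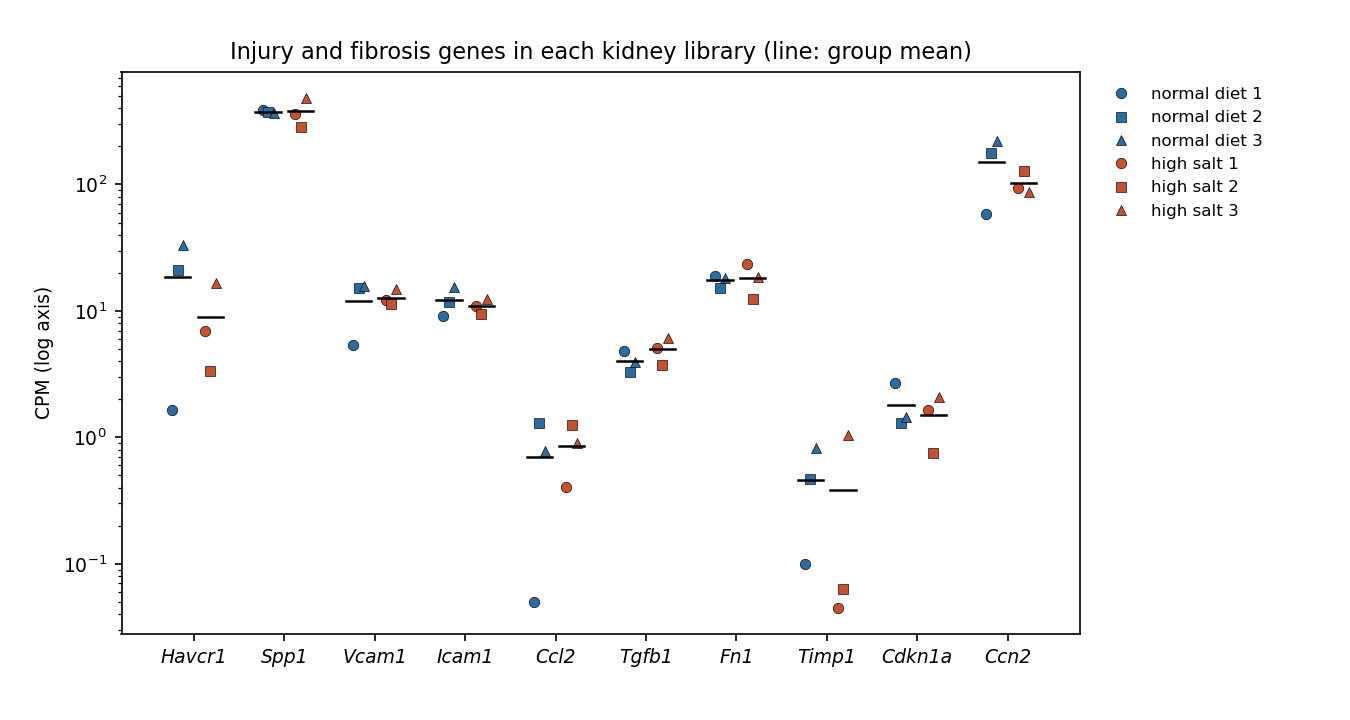
CPM of the 10 genes in each of the 6 kidney libraries, on a log axis; blue is the normal diet, red is high salt, the marker shape is the library number and the line is the group mean. The diets overlap for every gene. Normal diet library 1 is at the bottom for 5 of the 10, and for 29.9% of all kidney genes tested. Havcr1 is at 1.65 CPM there, against 33.3 CPM in normal diet library 3.

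Normal diet library 1 was the lowest for 5 of the 10 members in kidney, and for 29.9% of all kidney genes tested. It also stood low in markers of other cells: the leukocyte list, with all 9 genes detected, summed to 56.6 CPM there, against 145 and 185 CPM in the other normal diet libraries and 75.5 to 111 CPM on high salt. The endothelial list summed to 117 CPM there, against 168 to 185 CPM in the other 5 libraries. The proximal tubule list with Kap, an androgen-dependent kidney protein that makes up most of that list, was lowest in this library. It summed to 23306 CPM there, against 31497 to 57663 CPM elsewhere. Without Kap the list was highest in this library at 3365 CPM, against 1966 to 2996 CPM elsewhere. The part of these cell types in the members' levels was not tested.

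Across the 6 kidney libraries the Pearson correlation of log2 CPM was 0.94 between Havcr1 and Icam1 and 0.89 between Havcr1 and Vcam1. It was 0.75 between Havcr1 and Ccn2, 0.35 between Havcr1 and Spp1 and -0.17 between Havcr1 and Tgfb1. These are descriptions over 6 libraries. Normal diet library 1 was the lowest for Havcr1, Icam1, Vcam1 and Ccn2, but was not an extreme for Spp1 or Tgfb1. The genes most like Havcr1 among 11824 kidney genes were Gda (0.98) and Cmss1 (0.98), those most like Ccn2 were Snhg12 and Mosmo (0.998 each), and Gatd1 (0.99) was among those most like Spp1. For Vcam1 they were Mrpl9 and Mgp, for Icam1 Rps6ka5 and Nkiras1, for Tgfb1 Zdhhc12 and Mcm2, and for Fn1 Ankrd12 and Tnip1, with correlations of 0.977 to 0.996.

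In liver, again no injury or fibrosis gene passed the test between the diets, and normal diet library 4 stood far above the others for Icam1 and Ccl2. Of the 7 members that passed the filter, 0 were past the adjusted threshold in edgeR, where the background was 1.00% of 15130 genes, and DESeq2, which gave Icam1 no p, and limma also called 0. At an unadjusted p of 0.05, 1 of 7 (Icam1) passed, against 21.2% of all genes. No member had diets that did not overlap, against 12.5% of all genes. Voom with sample quality weights called 4 members (Ccn2, Fn1, Tgfb1 and Vcam1), but it called 8284 of the 15130 genes in all. The members' median log2 fold change was -0.16, beside -0.02 over all genes.

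Icam1 stood at 10.2, 5.20, 6.20 and 107 CPM in normal diet libraries 1 to 4 and at 6.92, 7.79, 6.38 and 9.56 CPM in HS5 to HS8. Library 4 held 10.5 times the next highest library, and the other 7 libraries of both diets lay between 5.20 and 10.2 CPM. High salt differed by -2.07 on the log2 scale (SE 0.89, 95% interval -4.07 to -0.08), with an unadjusted p of 0.0432 and an adjusted p of 0.221 by edgeR. Without library 4 the log2 fold change was 0.07.

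Ccl2 had the same shape at a lower level. It had 9, 2, 8 and 631 counts in normal diet libraries 1 to 4, or 0.214, 0.0545, 0.252 and 15.2 CPM, and 7, 10, 18 and 8 counts in HS5 to HS8, or 0.124 to 0.374 CPM. Library 4 stood 40.5 times above the next library, and the gene did not pass the filter, since most libraries held few counts. With no filter its log2 fold change was -4.19, with an adjusted p of 0.191 by edgeR. Across the 8 liver libraries the Pearson correlation of log2 CPM between Icam1 and Ccl2 was 0.95, with library 4 as the extreme point of both.

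Cdkn1a was also highest in library 4. It stood at 0.404, 0.817, 0.912 and 3.34 CPM in normal diet libraries 1 to 4 and at 1.28, 1.33, 0.437 and 0.406 CPM in HS5 to HS8. HS5 and HS6 sat above HS7 and HS8, and library 4 was 2.52 times above the next library. High salt differed by -0.67 on the log2 scale (SE 0.66, adjusted p 0.569 by edgeR), and without library 4 it was 0.27. Vcam1 was less extreme, with 3.83, 5.10, 10.9 and 13.4 CPM on the normal diet and 8.33, 8.21, 5.86 and 5.28 CPM on high salt. Its log2 fold change was -0.26 (SE 0.38, adjusted p 0.713 by edgeR), and 0.06 without library 4. Timp1 had 3, 3, 2 and 10 counts on the normal diet and 4, 7, 10 and 11 counts on high salt, too few to pass the filter.

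Library 4 held the highest value for 6 of the 9 members measured in liver, where it was the highest of 8 for 17.5% of all genes tested. Genes of the companion lists, named here after their values were seen, stood out in the same library. Lcn2 (neutrophil gelatinase-associated lipocalin) was at 2848 CPM there and at 0.834 to 4.31 CPM in the other 7 libraries, and Cxcl1, a neutrophil chemokine, was at 382 CPM and at 0.746 to 5.42 CPM elsewhere. Tnfaip3, an inhibitor of NF-kB that is itself induced by it, was 33.0 times above the next library, Ccl7 13.4 times and Hmox1 4.77 times. Of the leukocyte adhesion and chemokine list, 16 of 21 genes were highest in library 4, beside the 17.5% of all genes tested. Some were so by little, such as Selp at 1.08 times and Rela at 1.12 times the next library. By the stricter measure of over 2-fold above every other library, the share of all genes tested was 1.52%. The neutrophil markers (5 of 6 in the table) summed to 51.1 CPM in library 4 and to 0.767 to 1.41 CPM in the other 7, where Ly6g was at 0 in 5. Most of the sum in library 4 was S100a8 (18.2 CPM) and S100a9 (31.7 CPM). Mmp8, Ly6g and Ngp were at only 0.817, 0.264 and 0.120 CPM in library 4. Kupffer cell markers summed to 198 CPM there, to 87.2 to 136 CPM in the other normal diet libraries and to 59.4 to 127 CPM on high salt. The part of these cells in the members' levels was not tested.

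**Figure D2:**
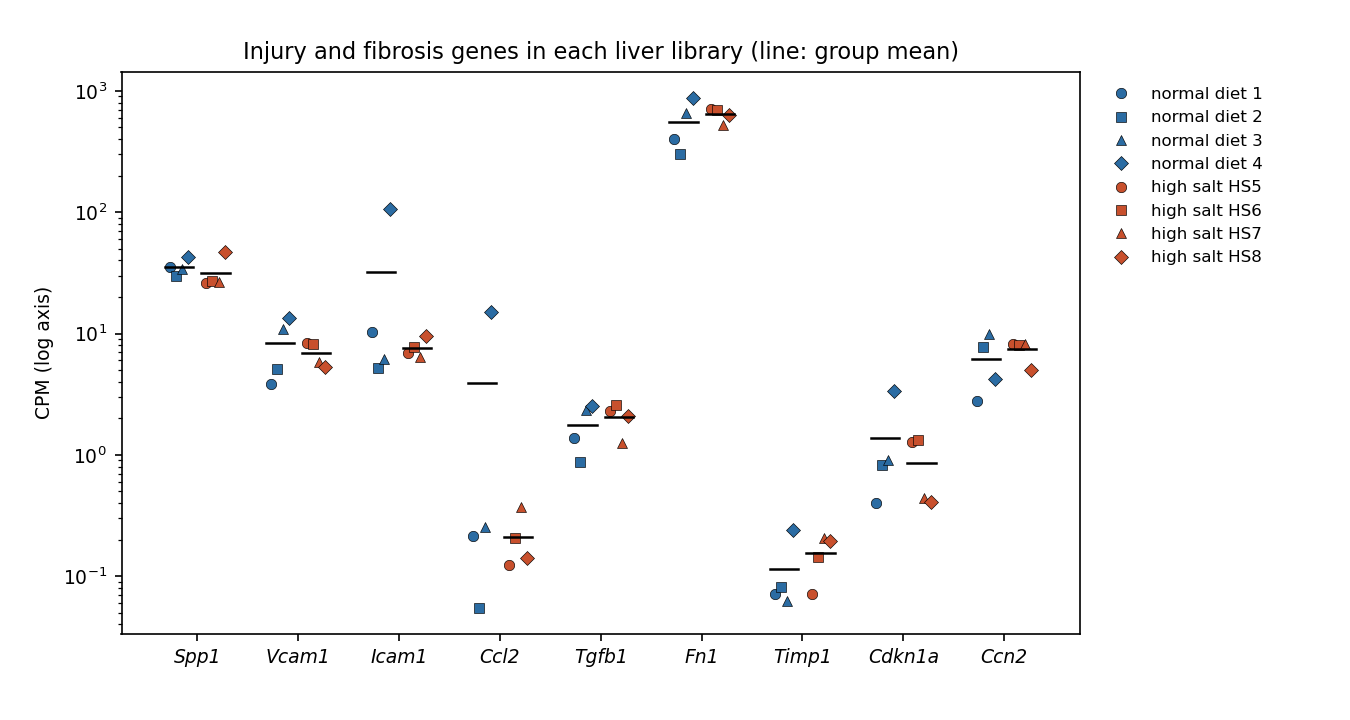
CPM of the 9 genes measured in liver in each of the 8 libraries, on a log axis; blue is the normal diet, red is high salt, the marker shape is the library and the line is the group mean. Normal diet library 4 (blue diamond) stands alone for Icam1 at 107 CPM and Ccl2 at 15.2 CPM, while Fn1 is lowest in normal diet libraries 1 and 2.

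The profibrotic genes of liver followed another split. Tgfb1 stood at 1.38, 0.872, 2.33 and 2.52 CPM on the normal diet and 2.29, 2.57, 1.25 and 2.10 CPM on high salt. Fn1 stood at 400, 301, 652 and 882 CPM on the normal diet and 714, 690, 527 and 637 CPM on high salt. In both genes normal diet libraries 1 and 2 were below libraries 3 and 4, and HS7 was the lowest on high salt. Across the 8 libraries the log2 CPM of Tgfb1 and Fn1 had a Pearson correlation of 0.93. Log2 fold changes were 0.21 for Tgfb1 (SE 0.37, adjusted p 0.766 by edgeR) and 0.20 for Fn1 (SE 0.32, adjusted p 0.74). Without libraries 1 and 2, those low in mitochondrial transcripts, the values turned to -0.24 and -0.25.

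Ccn2 stood at 2.76, 7.79, 10.002 and 4.23 CPM on the normal diet and 8.26, 8.06, 8.19 and 5.03 CPM on high salt. Its lowest value was in normal diet library 1 and its highest in library 3, and HS8 was the lowest on high salt. High salt differed by 0.26 on the log2 scale (SE 0.37, 95% interval -0.57 to 1.08, adjusted p 0.712 by edgeR). Spp1 stood at 35.2, 29.6, 34.1 and 43 CPM on the normal diet and 26.3, 27.0, 26.4 and 47.1 CPM on high salt. HS8 was the highest of all 8 libraries and the other high salt libraries were the lowest, and the log2 fold change was -0.16 (SE 0.22, adjusted p 0.689 by edgeR). The cholangiocyte list, all 5 genes of which were in the table, summed to 4.91 CPM in HS8 and 4.47 CPM in normal diet library 4, the libraries with the most Spp1, and to 2.56 to 3.09 CPM in the other 6. The part of bile duct cells in Spp1 was not tested.

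Among the other liver genes, Icam1 was closest to Tnfaip3 (Pearson 0.99) and Slc11a2 (0.98), and Ccl2 to Polr3d (0.98) and Il1rn (0.97), the gene of the interleukin-1 receptor antagonist. Fn1 was closest to Fscn1 (0.99) and Tpcn1 (0.99), and Vcam1 to Zranb3 (0.98) and Rab3gap1 (0.97), and Anpep (0.99) was among those closest to Tgfb1. For Spp1 they were Ugt1a9 (0.95) and Zfp36 (0.92), and for Ccn2 Thoc2 (0.96) and Txndc16 (0.96). These describe 8 libraries and 12190 genes and carry no test. Normal diet library 4 stood 10.5, 40.5 and 33.0 times above the next library for Icam1, Ccl2 and Tnfaip3. The correlations of Icam1 and Ccl2 therefore lean on that library.

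**Figure D3:**
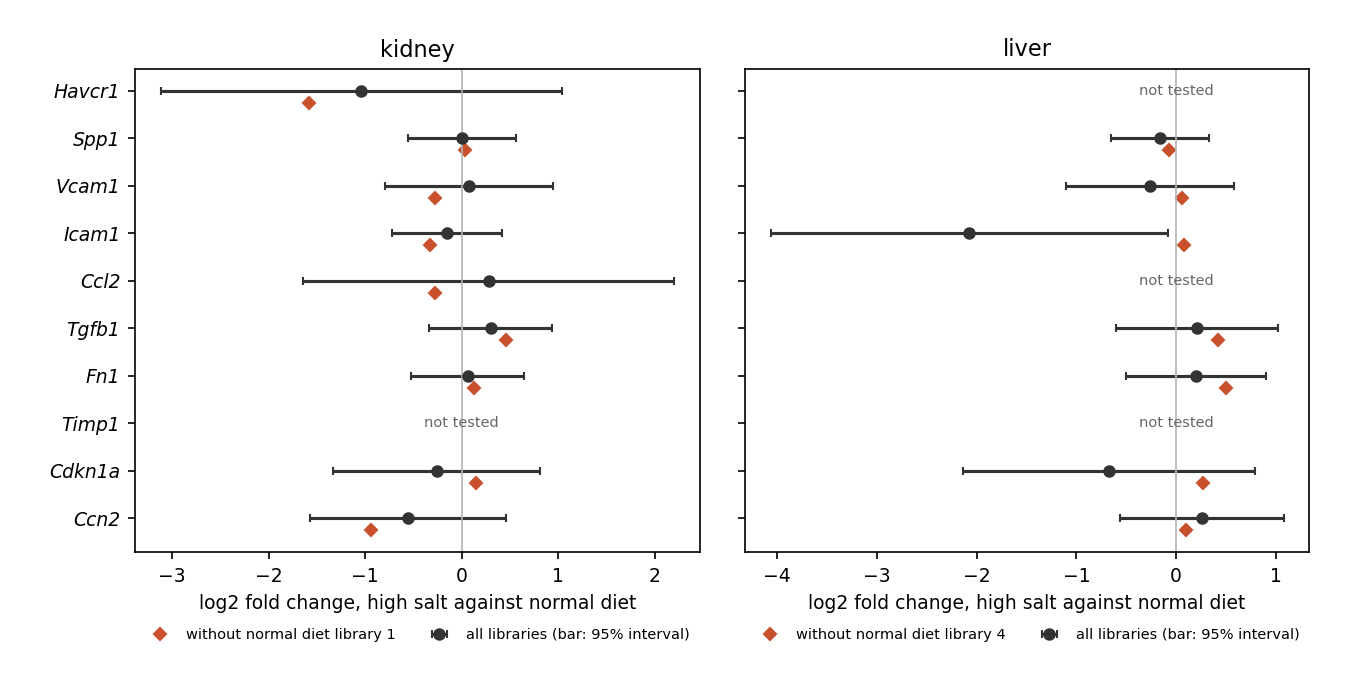
Log2 fold change of each gene, high salt against the normal diet, in kidney (left) and liver (right); black points are all libraries with 95% intervals from edgeR, and red diamonds leave out kidney normal diet library 1 or liver normal diet library 4. The interval of liver Icam1 runs from -4.07 to -0.08, and its diamond sits at 0.07.

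Whether the diet acted differently in the 2 tissues was tested in 1 fit of all 14 libraries. No member passed for the interaction of tissue and diet, where 0% of 16633 genes passed in edgeR and 10.1% were at an unadjusted p of 0.05. The smallest p was that of Ccl2, with an interaction of 4.43 on the log2 scale (kidney minus liver, SE 1.99, unadjusted p 0.042, adjusted p 0.48), and without liver normal diet library 4 it was 0.020. DESeq2 called 0 of the members it could judge, but gave no p for Ccl2 and Icam1 and no adjusted p for Timp1.

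Between the tissues on the normal diet, 4 of the 9 members passed in edgeR, where the background was 65.1% of 16633 genes. Of these, 2 were higher in kidney, against 32.2% of all genes, and 2 were higher in liver, against 32.9%. Tissue and any difference in library making or quantification cannot be told apart here, because the tissues come in separate tables. CPM in this contrast are scaled over all 14 libraries together, so they differ from the values given above for each tissue. Ccn2 was higher in kidney, with 124 ± 68.6 CPM (SD, n = 3) against 7.33 ± 3.86 CPM (n = 4) in liver, a log2 difference of 4.08 (SE 0.46, adjusted p 1.67e-06 by edgeR). Spp1 was higher in kidney too, with 308 ± 8.99 CPM (SD, n = 3) against 42.0 ± 5.26 CPM (n = 4), a log2 difference of 2.87 (SE 0.25, adjusted p 1.15e-07 by edgeR). Fn1 was higher in liver, with 653 ± 279 CPM (SD, n = 4) against 14.2 ± 1.72 CPM (n = 3) in kidney, a log2 difference of -5.52 (SE 0.41, adjusted p 1.75e-08 by edgeR). These 3 calls held in each of the 20 alternatives. Icam1 was called higher in liver, with a log2 difference of -1.90 (SE 0.80, adjusted p 0.0488 by edgeR), but only 5 of 20 alternatives kept the call (DESeq2 gave no adjusted p), and without liver normal diet library 4 the difference was 0.18. Vcam1, Tgfb1, Cdkn1a, Ccl2 and Timp1 were not called, with log2 differences of 0.03, 0.66, -0.11, -2.97 and 1.45. Tgfb1 was called higher in kidney in 2 of 20 alternatives, with upper quartile scaling (0.94, adjusted p 0.0329 by edgeR) and with at least 10 counts in every library (0.86, adjusted p 0.0362).

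Within a tissue the members can be ranked per length. In kidney on the normal diet, Spp1 came first at 229 ± 7.28 CPM per kb of exon (SD, n = 3), then Ccn2 at 53.1 ± 29.3 and Havcr1 at 8.06 ± 6.90, and no library of one overlapped those of the next. Icam1 at 2.78 ± 0.742 CPM per kb overlapped Havcr1 but not Fn1 at 1.49 ± 0.179. From Fn1 down, Vcam1 (1.36 ± 0.654), Tgfb1 (0.800 ± 0.156), Ccl2 (0.619 ± 0.547), Timp1 (0.522 ± 0.407) and Cdkn1a (0.510 ± 0.217) each overlapped the neighbour above. In liver on high salt, whose 4 libraries do not include library 4, Fn1 came first at 54.9 ± 7.15 CPM per kb (SD, n = 4), then Spp1 at 19.2 ± 6.22, with no overlap. Ccn2 (2.58 ± 0.549) and Icam1 (1.76 ± 0.319) followed and overlapped each other, and Vcam1 (0.780 ± 0.178) and Tgfb1 (0.407 ± 0.113) stood apart from their neighbours above. Cdkn1a (0.243 ± 0.143), Ccl2 (0.186 ± 0.10) and Timp1 (0.174 ± 0.0697) came last and overlapped. On the normal diet in liver, Fn1 (47.8 ± 22.4) and Spp1 (21.5 ± 3.39) were again first, but Icam1 (7.38 ± 11.5) and Ccl2 (3.45 ± 6.59) came next through library 4.

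**Figure D4:**
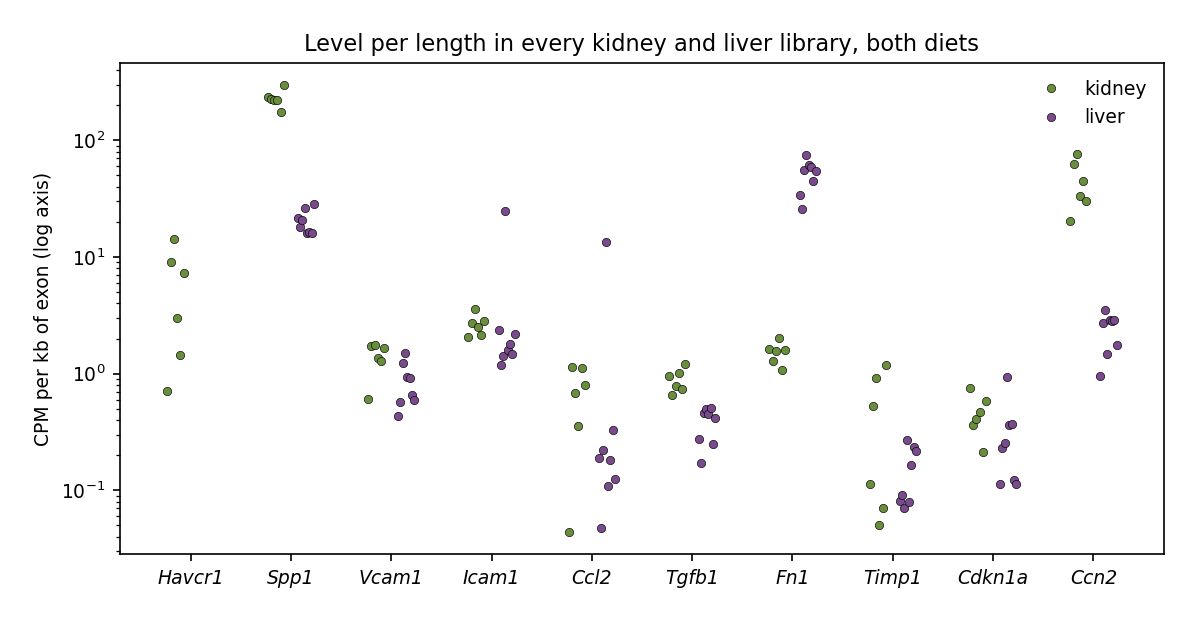
CPM per kb of exon for each gene in every kidney (green) and liver (purple) library of both diets, on a log axis. Spp1 and Ccn2 sit higher in kidney and Fn1 in liver, and the single high liver points of Icam1 and Ccl2 are normal diet library 4.

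Genes that work with the members were taken from 6 companion lists of 110 genes in all. The lists were chosen with earlier results of these data known, so their counts and medians are descriptions and not tests. In kidney 0 of 95 tested companions passed in edgeR, none passed in DESeq2, limma or voom, and the unadjusted count in edgeR was 4, against 2.01% of all genes. Lox, the enzyme that cross-links collagen, stood at 2.05, 2.40 and 2.76 CPM on the normal diet and 3.57, 5.42 and 4.64 CPM on high salt, with a log2 fold change of 0.91 (unadjusted p 0.0102, adjusted p 0.9996 by edgeR). Every high salt library was above every normal diet library for Lox, and 6.92% of all genes had diets that did not overlap. In the p53 list Ccng1, a p53 target, stood at 317, 456 and 474 CPM on the normal diet and 231, 301 and 259 CPM on high salt, a log2 fold change of -0.66 (unadjusted p 0.0243 by edgeR). Eda2r, another p53 target, had a log2 fold change of -1.42 (unadjusted p 0.0264 by edgeR) and also had diets that did not overlap, while Cdkn1a itself did overlap. The p53 list also holds Trp53 itself and genes of the cell cycle, and Ccng1 and Eda2r were the only 2 of its 15 tested genes without overlap. Its median was -0.13, with 3 of 15 genes above 0 (Trp53 at 0.69, Top2a at 0.17 and Sesn2 at 0.03). Mdm2, Btg2 and Gadd45a were at -0.16, -0.12 and -0.02. The median of the matrix list was 0.17, with 14 of 19 above 0, and that of all genes was -0.02. Krt8, a keratin of injured tubules, had the smallest p of the tubular injury list, with a log2 fold change of 0.65 (unadjusted p 0.0344 by edgeR). The smallest p in the other lists was that of Eng, a co-receptor of TGF-beta (0.24), Il1b (-1.20) and Itga5, a subunit of the fibronectin receptor (0.60), and none of these was under 0.05 unadjusted. Lcn2, the tubular injury marker, lay between 0.189 and 1.68 CPM in all kidney libraries.

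In liver 0 of 98 tested companions passed in edgeR, and the matrix and TGF-beta lists had medians above 0. In the matrix list 8 of 19 genes were at an unadjusted p of 0.05 and all 8 were higher, with a list median of 0.62, and in the TGF-beta list it was 5 of 19, all higher, with a median of 0.51. All genes had a median of -0.02 and 21.2% at that p. Because the lists were chosen with earlier results known, these counts and medians do not test a shift of a list. Col1a2, a chain of type I collagen, stood at 2.95, 3.02, 5.50 and 2.79 CPM on the normal diet and 7.03, 7.23, 6.46 and 10.2 CPM on high salt, a log2 fold change of 1.12 (adjusted p 0.0761 by edgeR). Smad7, the inhibitory SMAD that TGF-beta induces, stood at 3.61, 5.01, 4.25 and 2.33 CPM on the normal diet and 6.96, 8.19, 8.75 and 10.2 CPM on high salt, a log2 fold change of 1.17 (adjusted p 0.0607 by edgeR). In both genes every high salt library was above every normal diet library, while their upstream member Tgfb1 overlapped. The mesenchymal marker list, which shares Col1a1, Col1a2, Pdgfra, Pdgfrb, Dcn and Lum with the matrix list, summed to 56.2 to 101.6 CPM on the normal diet and 112 to 124 CPM on high salt. The stellate list summed to 65.7 to 124 and 133 to 156 CPM, and the hepatocyte list to 49169 to 76839 and 87460 to 105744 CPM. Dcn is in the stellate list too, and it made up most of the mesenchymal and stellate sums. In normal diet library 4 it stood at 41.4 CPM, within sums of 56.2 and 65.7 CPM. The mean of Dcn was 63.2 CPM for the normal diet and 92.4 CPM for high salt. The mesenchymal and stellate sums are therefore not separate from the matrix list. The part of these cells was not tested.

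The other liver lists held genes on both sides of 0. Cx3cl1, a chemokine for monocytes, had a log2 fold change of 1.41 (adjusted p 0.0746 by edgeR) from 5 to 39 counts per library. Itga8, the alpha8 integrin that binds fibronectin and osteopontin, had 1.21 (adjusted p 0.114 by edgeR), and 8 of 9 receptor genes were above 0. Btg2, a p53 target that slows the cell cycle, stood at 7.96, 17.7, 6.32 and 33.5 CPM on the normal diet and 3.32, 3.71, 4.51 and 5.65 CPM on high salt, a log2 fold change of -1.93 (adjusted p 0.0867 by edgeR). Lcn2 had the smallest p of the injury list, with -9.32 (adjusted p 0.103 by edgeR). Besides library 4, the other 3 normal diet libraries (2.81 to 4.31 CPM) were also above high salt (0.834 to 1.5 CPM). Diets that did not overlap were seen for 12.5% of all liver genes. Which companions passed depended on the fit: DESeq2 called 10, among them Smad7, Col1a2, Col1a1, Cx3cl1 and Btg2. Without normal diet library 4 edgeR called 2 (Lcn2 and Smad7), and without library 3 it called 6, among them Smad7, Col1a1 and Col1a2. Over all genes tested, DESeq2 called 1122 of 15130. For edgeR it was 409 of 15270 without library 4 and 765 of 15471 without library 3.

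**Figure D5:**
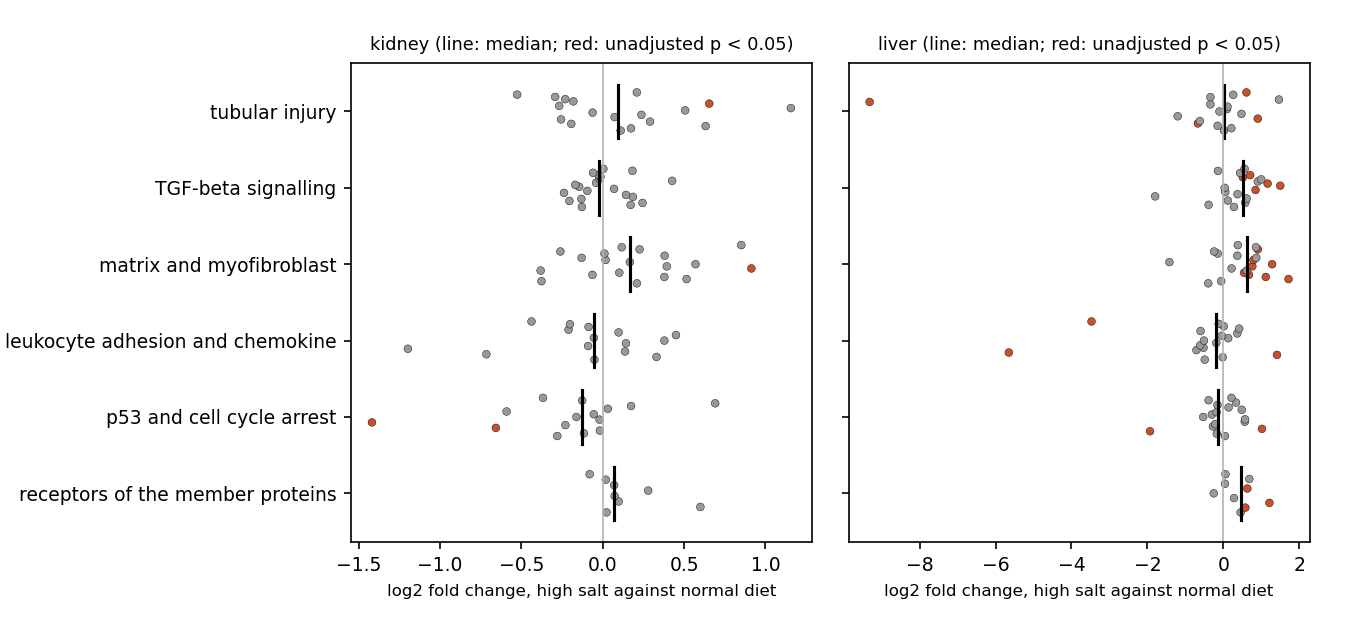
Log2 fold change of each tested companion gene, high salt against the normal diet, by list in kidney (left) and liver (right); the black line is the list's median and red points have an unadjusted p under 0.05 in edgeR. The liver matrix and TGF-beta lists, chosen with earlier results of these data known, have medians of 0.62 and 0.51. The point far to the left in liver is Lcn2 at -9.32.

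Several members share exon bases with a neighbouring transcript, and the sources used here do not say whether counting used the strand. Ccn2 shares 665 bases with the antisense Gm15270, Icam1 511 with Gm47079, Fn1 292 with Apol7d, Cdkn1a 273 with AC167363.2 and Vcam1 61 with Gm43109, and Spp1 shares 309 with Gm42793 on its own strand. Reads from these stretches cannot be assigned with certainty.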

How the data were processed

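The members and the companion and marker lists were chosen with earlier results of these data known. Libraries were made with the SMARTer mRNA kit from total RNA, per the labels' protocols. The submitters' processing notes name Partek 7.0, STAR 2.5.3a, DESeq2 and the build mm10, with no role or order. The authors deposited expected counts per gene from Partek's expectation-maximisation, per the file names, and normalized values, a linear signal per gene, by a method not given in the sources used here. Every column of sample values was used (0 left over).

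Counts were rounded and fitted with edgeR 4.0.16 (quasi-likelihood, TMM, filterByExpr) in R 4.3.3, separately for kidney and liver, on diet alone. The 17600 genes in both tables were fitted in 1 model of 4 groups for the interaction and the tissue contrast. Benjamini-Hochberg adjusted p-values under 0.05 over all genes tested were called. CPM use TMM library sizes. Per-kb values use GENCODE M21 exon unions. A count of 0 allows up to 3 counts (0.0530 to 0.189 CPM), and such floors cover counting error only. The fits were also run on simulated counts, in which no library was made to stand apart, and the outcome is not given here.

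All 10 members are named. A companion is named if called (up to 5 per list), otherwise the smallest p of its list. Likeness names 2 genes per member with a mean of at least 50 counts, by Pearson correlation of log2 CPM (prior count 2). Some genes that these rules name are not reported here. Other companions were chosen after their values were seen. Markers not mentioned in the results, those of adrenal cortex, muscle, thick ascending limb and distal tubule, summed to at most 8.65, 1.89, 2534 and 450 CPM in any library. Alternatives were other scalings (RLE, upper quartile), DESeq2 1.42.0, limma 3.58.1 on the deposited signal (pseudocounts 1 and 0.1), voom with sample weights, dropping the filter or asking for 10 counts in each library, removing mitochondrial genes, 1 fit of all 14 libraries, the replicate block, HS5 and HS6 summed, normal diet liver libraries 1 and 2 left out, and each library left out.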

Additional observations from a re-analysis of the deposited data

Results flagged for a closer look

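Of 18 sets of 4 liver libraries (each of 9 genes in each diet), 5 held a library whose gap to its nearest neighbour was unusually large for the set's range by Dixon's criterion. Chance gives about 1 in 20, or 0.9 here, where values are normally distributed. The sets share the same libraries, and HS5 and HS6 were far closer than other pairs, so the 5 are not independent of each other. Normal diet library 4 was far above the other 3 for Ccl2 (15.2 CPM), Icam1 (107 CPM) and Timp1 (0.240 CPM, 10 counts). On high salt, HS8 was far above the other 3 for Spp1 (47.1 CPM) and far below them for Ccn2 (5.03 CPM). Kidney groups of 3 are too small for this criterion.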

How the results depend on the processing

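No member was called between the diets in kidney under any alternative. Of 291 alternative values of a member's fold change between the diets, 259 kept their direction and side of the threshold, 29 changed sign and 3 became calls. The calls came from voom with sample weights in liver (Tgfb1 0.90, Fn1 0.83, Ccn2 0.80), which called 4 members and 53 companions there. It called 8284 of the 15130 liver genes in all. Voom also turned liver Vcam1 to 0.69 and Cdkn1a to 0.85, and kidney Vcam1 to -0.19, Ccl2 to -0.42 and Cdkn1a to 0.19. Kidney Spp1, at 0.0037, went to -8.88e-05 with RLE scaling, -3.63e-05 with DESeq2 and -0.026 with limma at either pseudocount. Without liver normal diet libraries 1 and 2 together, Tgfb1 was -0.24 and Fn1 -0.25. The cause of these changes was not tested. Companions called in liver were 10 with DESeq2 and 6 with all 14 libraries in 1 fit. Over all genes these fits called 1122 of 15130 and 260 of 16633.

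Leaving out 1 library at a time gave, in kidney, -1.85 to -0.32 for Havcr1, -0.94 to -0.20 for Ccn2, 0.13 to 0.47 for Tgfb1, -0.22 to 0.17 for Spp1, -0.27 to 0.31 for Vcam1, -0.33 to 0.061 for Icam1, -0.28 to 1.02 for Ccl2, -0.16 to 0.27 for Fn1 and -0.57 to 0.15 for Cdkn1a. In liver it gave -0.42 to -0.070 for Spp1, 0.0019 to 0.57 for Ccn2, -0.51 to 0.064 for Vcam1, -2.43 to 0.075 for Icam1, -0.016 to 0.42 for Tgfb1, -0.0073 to 0.50 for Fn1, -0.98 to 0.27 for Cdkn1a and 0 to 6 companions called. It gave 3 to 5 members between the tissues, where Icam1 lost its call in 11 of the 14 and Ccl2 gained one without liver normal diet library 1, 2 or 3.

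Whether kidney title numbers pair the samples cannot be decided from correlations over 3 libraries per diet. Those of same-numbered libraries were 0.41, 0.38 and -0.09. Library 3 of the normal diet correlated better with high salt library 2 (0.39). With the replicate block 0 kidney genes were called and 459 were at an unadjusted p of 0.05, against 318 without it, and Spp1 was -0.031. No paired analysis was possible in liver because the high salt columns carry no title number. Over all genes, calls in kidney went from 0 to 11 with DESeq2, and unadjusted calls to 2627 without normal diet library 1. In liver they went from 152 to between 12 (without HS6, or with HS5 and HS6 summed) and 765 (without normal diet library 3), and to 1122 with DESeq2. Ccl2 in kidney, Timp1 in both tissues and Ccl2 in 7 of the 8 liver libraries had at most 23 counts, which limits their precision.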
